A study of Mus musculus with 8 samples.

Results

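Colon tumours were compared directly with small-intestinal (SI) tumours on 4 of the 8 arrays of a mouse gene expression series. The 4 arrays were chosen by their labels: 1 of colon tumours and 1 of SI tumours from ApcMin/+ mice, and 1 of each from ACKR2-/-ApcMin/+ mice. The labels place the SI tumours in the ileum. All mice were of strain C57BL/6 and 110 days old, and the tumours arose spontaneously. Each array held RNA pooled within a genotype and tissue, so every group was 1 array (n = 1). The number of animals in a pool, their sex and whether the dissected tumours carried adjacent mucosa are not given in the sources used here. The other 4 arrays, of colon and small intestine from WT and ACKR2-/- mice without the Apc mutation, served only as the non-tumour reference. For those, the labels name small intestine without saying which stretch.

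ApcMin/+ mice carry a truncating mutation in 1 copy of Apc, and their adenomas form when the remaining copy is lost, which releases beta-catenin from degradation and switches on Wnt target genes. ACKR2, formerly called D6, is an atypical receptor that takes up and degrades inflammatory CC chemokines without signalling. Along the normal intestine, position is written into the epithelium by transcription factors. GATA4, HNF4 factors and PPAR alpha support the absorptive programme of the small intestine, and posterior Hox genes mark the hindgut. The ileum reclaims bile acids and vitamin B12, its crypts hold Paneth cells that secrete antimicrobial proteins, and the colon moves salt and water.

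Signals are linear array intensities on which each array had been scaled to the same trimmed mean of 500. A signal below 64.1 was set to that floor before logarithms were taken, so a fold against a group at the floor is a lower bound. In what follows, a pair of signals is given with the ApcMin array before the ACKR2-/-ApcMin array, and for non-tumour tissue with WT before ACKR2-/-. Differences are colon minus SI on the log2 scale, each with the standard error (SE) of a limma model of all 8 arrays and the p-value adjusted by Benjamini-Hochberg over 14023 genes. Because a group is 1 pool, these errors describe how far the ACKR2 difference varied between colon and SI arrays and not how far animals vary.

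Median signals of the 4 tumour arrays lay between 96.3 and 128, and the 3' to 5' ratio of actin was 1.13 and 1.14 in the ApcMin pair and 1.32 and 1.39 in the ACKR2-/-ApcMin pair. By the actin ratio, RNA integrity was therefore matched within a pair and not between pairs. The same ratio of Gapdh did not part the pairs as clearly. It was 0.772 and 0.793 in ApcMin colon and SI tumours, and 0.797 and 0.866 in the ACKR2-/-ApcMin ones. The sex mix of the pools also differed between genotypes, and between the WT non-tumour tissues and the tumours. Y-linked Eif2s3y was called higher in tumours than in non-tumour tissue in colon (2.27, adjusted p = 0.00275, limma) and SI (2.14, adjusted p = 0.00721). Contrasts of tumours with non-tumour tissue therefore carry a difference in sex mix, whose part was not tested. Xist, transcribed from the inactive X chromosome, read 2954 in colon and 4827 in SI tumours of ApcMin mice, against 77.9 and 127 in ACKR2-/-ApcMin mice, and Y-linked Eif2s3y was above the floor on all 4 arrays and below it in the WT non-tumour tissues. The Ackr2 probe set read 107 and 122 in colon and 90.7 and 76.4 in SI tumours and did not separate the genotypes. Which stretch of Ackr2 is deleted is not given in the sources used here, so this probe set does not check the labels.

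The 2 kinds of tumour differed widely. In the limma model, 808 genes (5.76% of those tested) were higher in colon tumours and 1032 (7.36%) were higher in SI tumours at an adjusted p under 0.05, 13.1% in all. By fold alone, 391 genes (2.79%) were at least 2-fold higher in colon tumours in both genotypes, and 692 (4.93%) were at least 2-fold higher in SI tumours in both. The ApcMin pair alone had 586 genes (4.18%) at least 2-fold higher in the colon tumour and 883 (6.3%) in the SI tumour, and the ACKR2-/-ApcMin pair had 1476 (10.5%) and 1342 (9.57%). The differences of the 2 pairs correlated across genes at r = 0.794, which describes 14023 genes that are not independent replicates. Only 10 genes (0.0713%) were at least 2-fold apart in opposite directions. The calls rest on the spread seen over all 8 arrays: with the 4 tumour arrays alone, or with any 1 of them left out, 0 genes passed limma's adjusted threshold. At an unadjusted p under 0.05, 1274 genes were higher and 1446 lower in limma with the 4 arrays alone, against 2311 and 1942 in the model of 8. Without the filter on dim genes, 5 and 19 genes passed.

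**Figure D1:**
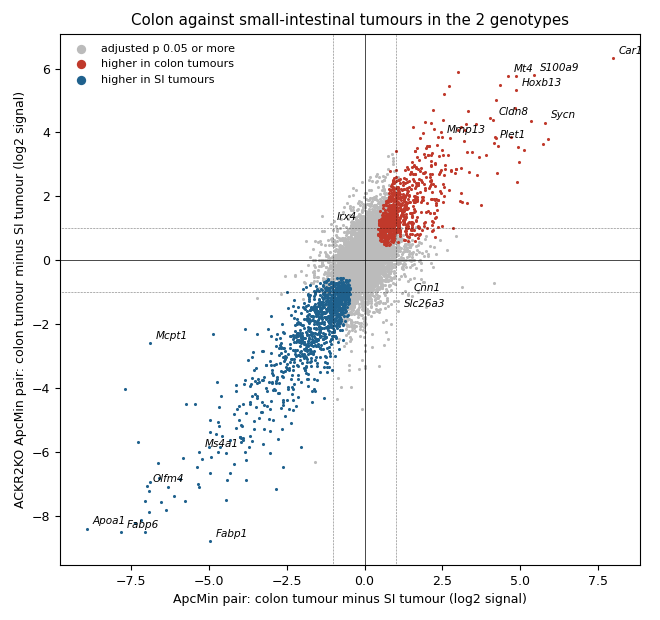
Each point is 1 of 14023 genes, with the colon tumour minus SI tumour difference (log2 signal) of the ApcMin pair on the x axis and of the ACKR2-/-ApcMin (ACKR2KO) pair on the y axis; dotted lines mark 2-fold. The 808 genes higher in colon tumours (red) lie at upper right and the 1032 higher in SI tumours (blue) at lower left, and few genes lie in the other corners.

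The largest differences towards the SI were genes of lipid and bile acid absorption. Apoa1, the main protein of high-density lipoprotein, had signals of 5.06 and 140 in colon tumours and 30842 and 47537 in SI tumours. That was at least 404-fold lower in colon tumours (-8.66 ± 0.17 (SE), adjusted p = 3.78e-05). Fabp6, the ileal bile acid binding protein, read 117 and 90.4 in colon tumours and 26097 and 33401 in SI tumours, a 288-fold difference (-8.17 ± 0.20 (SE), adjusted p = 4.00e-05). For both genes the SI tumours were within 2-fold of non-tumour SI, where Apoa1 read 43027 and 39853 and Fabp6 27968 and 39468. Slc10a2, the transporter that takes bile acids up from the ileal lumen, was below the floor in both colon tumours at 6.9 and 15.7 and read 781 and 1226 in SI tumours (-3.93 ± 0.38 (SE), adjusted p = 0.0027). Slc51a, a subunit of the exporter that passes bile acids to the blood, read 89 and 43.2 against 8263 and 12334 (-7.06 ± 0.29 (SE), adjusted p = 0.000215). Fgf15, the hormone by which the ileum restrains bile acid synthesis in the liver, was below the floor in both colon tumours and read 213 and 378 in SI tumours (-2.14 ± 0.28 (SE), adjusted p = 0.00681). Of 11 measured genes of ileal bile acid handling, 8 were lower in colon tumours and 0 higher, with a median difference of -2.98 against 0.07 over all genes tested. The count of every list here and below stands beside 7.36% lower and 5.76% higher in colon tumours over all genes tested.

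Enzymes of the digestive surface were higher in SI tumours almost throughout. Of 20 measured brush border enzymes, 19 were lower in colon tumours and 0 higher (median -3.68). Anpep, an aminopeptidase, read 113 and 42.6 in colon tumours and 13746 and 15262 in SI tumours (-7.41 ± 0.40 (SE), adjusted p = 0.000444). Lct, which encodes lactase, was below the floor in both colon tumours and read 1406 and 11637 in SI tumours, where the genotypes themselves were further apart than for Anpep (-5.98 ± 0.77 (SE), adjusted p = 0.00675). Among 24 genes of lipid absorption 18 were lower in colon tumours and 0 higher, including Mttp, which loads lipid onto apolipoprotein B, at 53.7 and 92.9 against 7702 and 14004 (-7.07 ± 0.17 (SE), adjusted p = 4.00e-05). Of 28 nutrient transporters, 19 were lower and 1 higher. The neutral amino acid transporter Slc6a19 read 66.1 and 65.7 in colon and 8640 and 12304 in SI tumours (-7.29 ± 0.19 (SE), adjusted p = 4.01e-05). The exception was Slc6a14, a broad amino acid transporter, which read 4664 and 2828 in colon tumours and 134 and 258 in SI tumours (4.29 ± 0.41 (SE), adjusted p = 0.00268). Its SI signals had been 2125 and 6263 in non-tumour tissue, so here the SI tumours were the low group (tumour minus non-tumour in SI -4.29, adjusted p = 0.00677 in limma).

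Many enzymes that process foreign compounds followed the same side. Of 40 measured genes of this list, 18 were lower in colon tumours, 2 higher (Akr1b8 and Gsta4) and 20 not called. The median was -1.52, but -0.58 in the ApcMin pair and -2.785 in the ACKR2-/-ApcMin pair, each a single array against another. Cyp3a11, a broad-range cytochrome P450, was below the floor in both colon tumours and read 8481 and 23527 in SI tumours (-7.78 ± 0.35 (SE), adjusted p = 0.000323). Fmo5, a flavin monooxygenase, read 93.4 and 70.2 against 1460 and 2506 (-4.56 ± 0.31 (SE), adjusted p = 0.000931). Its difference was smaller outside tumours (-2.19), where colon signals were 815 and 529, and the change between the 2 settings did not pass the limma threshold (-2.37, adjusted p = 0.0566).

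Several transcription factors of the SI were higher in its tumours. Of 26 measured regional factors, 10 were lower in colon tumours and 3 higher (Foxa1, Foxa2 and Foxd2). Hnf4g, a nuclear receptor of enterocytes, read 67.7 and 79.9 in colon tumours and 1145 and 2012 in SI tumours (-4.37 ± 0.25 (SE), adjusted p = 0.000514). Creb3l3, a membrane-bound factor of lipid metabolism, read 342 and 238 against 3341 and 6481 (-4.03 ± 0.33 (SE), adjusted p = 0.00167). Gata4, which is normally switched off towards the distal ileum, read 50.9 and 102 against 395 and 683 (-2.68 ± 0.35 (SE), adjusted p = 0.0068). By contrast Hnf4a, active along the whole intestine, read 8392 and 4964 in colon and 9541 and 10286 in SI tumours (-0.62 ± 0.25 (SE), adjusted p = 0.157). The caudal factor Cdx2 read 3147 and 629 against 3840 and 2630, with the ACKR2-/-ApcMin colon tumour lowest (-1.18 ± 0.47 (SE), adjusted p = 0.153). Cdx1 read 2440 and 903 against 1408 and 1086 and its groups overlapped (0.26 ± 0.25 (SE), adjusted p = 0.527).

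To show what the promoters of this shared SI set hold, the 250 bases before each gene's start in RefSeq (GRCm38.p6) were searched on both strands for the motif CAAAGTCCA, a form recognised by HNF4 proteins. Genes at least 2-fold higher in SI in both non-tumour and both tumour pairs held it in 7 of 291 promoters (2.41%), all genes tested in 46 of 11241 (0.409%), and all promoters of the table in 103 of 27025 (0.381%). By the same classes, described further on, it was in 1 of 151 promoters of kept colon genes (0.662%), in 0 of 349 of narrowed colon genes and in 0 of 119 of narrowed SI genes. These shares are descriptions and no test was made of them. A match is a run of letters, not a bound site. The windows of 100 bases around the 7 matches follow, 5′ to 3′ on the strand of the gene, with the motif or its reverse complement in capitals, and in Btnl2 the GATA motif AGATAA as well.

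Alpi (chr1:87101607-87101706, minus strand): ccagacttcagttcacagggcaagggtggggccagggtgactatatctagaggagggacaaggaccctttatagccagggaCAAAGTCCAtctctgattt

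Btnl2 (chr17:34354722-34354821, plus strand): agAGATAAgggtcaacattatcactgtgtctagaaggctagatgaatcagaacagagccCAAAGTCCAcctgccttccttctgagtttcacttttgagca

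Cyp3a11 (chr5:145879909-145880008, minus strand): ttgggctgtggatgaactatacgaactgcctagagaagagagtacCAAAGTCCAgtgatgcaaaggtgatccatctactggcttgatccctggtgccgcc

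H2-T3 (chr17:36190152-36190251, minus strand): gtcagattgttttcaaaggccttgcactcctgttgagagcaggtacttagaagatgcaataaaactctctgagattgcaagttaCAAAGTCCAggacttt

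Ptpn22 (chr3:103859695-103859794, plus strand): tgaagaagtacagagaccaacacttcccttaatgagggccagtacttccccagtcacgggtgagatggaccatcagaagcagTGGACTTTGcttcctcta

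Slc3a1 (chr17:85028247-85028346, plus strand): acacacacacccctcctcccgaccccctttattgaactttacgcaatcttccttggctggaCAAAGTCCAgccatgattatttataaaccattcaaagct

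Treh (chr9:44673117-44673216, plus strand): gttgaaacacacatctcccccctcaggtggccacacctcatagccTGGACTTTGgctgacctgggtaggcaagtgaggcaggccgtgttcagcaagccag

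The genes with the motif included brush border and transport genes. Alpi encodes intestinal alkaline phosphatase, which read 596 and 222 in colon tumours and 8340 and 17179 in SI tumours (-5.04 ± 0.53 (SE), adjusted p = 0.00349). Treh, which splits trehalose, was below the floor in both colon tumours and read 957 and 3078 in SI tumours (-4.74 ± 0.48 (SE), adjusted p = 0.00316). Slc3a1, a subunit of the cystine transporter, read 636 and 313 against 5251 and 7956 (-3.86 ± 0.37 (SE), adjusted p = 0.00268). Other motifs were not concentrated to the same extent in that set. AGATAA was in 35 of the 291 promoters (12%), in 6.45% of those of all genes tested and in 10.3% of all promoters of the table. The TCF/LEF motif CTTTGAT was in 11 (3.78%) against 2.41% and 3.23%. The CDX motif TTTATGG was in 9 (3.09%) against 1.69% and 2.45%, and in 7 of 151 promoters of kept colon genes (4.64%).

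**Figure D2:**
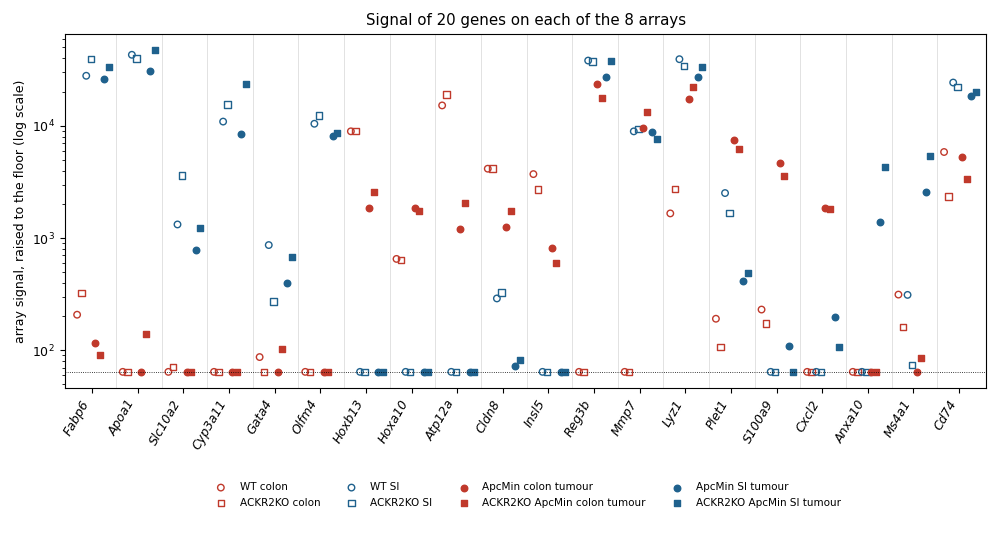
Signal of 20 genes on all 8 arrays, raised to the floor of 64.1 (dotted line), on a logarithmic axis; open markers are non-tumour tissue, filled markers tumours, red colon, blue SI, circles WT or ApcMin and squares ACKR2-/- (ACKR2KO) or ACKR2-/-ApcMin. Fabp6, Apoa1 and Olfm4 keep the SI arrays high and the colon arrays low in both settings, Hoxb13 and Atp12a do the reverse, and for Reg3b, Mmp7 and Lyz1 the colon tumours lie near the SI arrays.

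On the colon side, posterior Hox genes were higher. Of 24 measured Hox genes, 8 were higher in colon tumours and 0 lower. Hoxb13 read 1866 and 2553 in colon tumours and 1.12 and 5.81 in SI tumours, at least 34-fold higher (5.09 ± 0.22 (SE), adjusted p = 0.000255). Hoxa9 read 5491 and 4689 against 135 and 229 (4.85 ± 0.28 (SE), adjusted p = 0.000514), and Hoxa10 1836 and 1757 against 15.3 and 41.3 (4.81 ± 0.24 (SE), adjusted p = 0.000376). Hoxd13 read 1288 and 2874 against 38.8 and 52.3 (4.91 ± 0.32 (SE), adjusted p = 0.000774). In each of the 4, both colon tumours were far above both SI tumours.

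The Hox genes did not all hold their non-tumour level. Hoxb13 had read 8943 and 9039 in non-tumour colon and was lower in colon tumours (-2.04, adjusted p = 0.00371, limma). All 4 SI arrays were below the floor for Hoxb13, so its difference from SI is a lower bound in both settings. Hoxa10 moved the other way, from 652 and 639 in non-tumour colon to the values above (1.48, adjusted p = 0.0106). Of 9 Hox genes that marked non-tumour colon, 7 stayed at least 2-fold higher in both tumour pairs and 2, Hoxd9 and Hoxd11, came under 2-fold in both. Of 4 Hox genes that marked non-tumour SI, 0 stayed at least 2-fold higher there in both tumour pairs. Among these 4, 1 came under 2-fold in both pairs and 3 met neither rule. Hoxb9 was higher in colon tumours (2.15 ± 0.36 (SE), adjusted p = 0.0142) and was not called in non-tumour tissue (0.03, adjusted p = 0.979).

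Of 31 genes of salt, acid and water transport, 10 were higher in colon tumours and 4 lower. The median was 0.17, but -0.10 in the ACKR2-/-ApcMin pair alone and -0.07 over genes above the floor in all 4 tumour arrays. Atp12a, the colonic proton-potassium pump, read 1199 and 2073 in colon tumours and 21.8 and 9.86 in SI tumours (4.62 ± 0.26 (SE), adjusted p = 0.000462). Aqp8, a water channel, read 3720 and 1256 against 122 and 108 (4.23 ± 0.72 (SE), adjusted p = 0.0159), and Aqp4 5949 and 3743 against 331 and 257 (4.02 ± 0.33 (SE), adjusted p = 0.00156). Atp12a persisted at a lower level than in non-tumour colon, which had read 15217 and 19128 (tumour minus non-tumour -3.44, adjusted p = 0.00163). Subunits of the sodium channel ENaC parted: Scnn1b remained higher in colon tumours, whereas Scnn1a and Scnn1g came under 2-fold in both pairs. Slc26a6, an anion exchanger, was an SI gene in tumours as outside them, at 86.1 and 61 in colon and 3468 and 8258 in SI tumours (-6.17 ± 0.43 (SE), adjusted p = 0.000959).

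Car1, carbonic anhydrase 1 of colonic epithelium, had the largest difference towards the colon, at 16168 and 9191 in colon tumours against 42.3 and 114 in SI tumours, with a wide error (7.16 ± 1.69 (SE), adjusted p = 0.0436). The spread behind this error includes non-tumour SI, where the WT array read 18864 and the ACKR2-/- array 62.6. Non-tumour colon read 19162 and 19254, so the WT small intestine stood at the level of colon for this gene. The colon epithelial gene B3galt5 read 639 on the same WT array and 107 in ACKR2-/- small intestine. Aqp8 read 958 and 105 on the same arrays. Car1 therefore did not meet the 2-fold rule in the WT pair by which colon genes are defined further on, and the shares of genes kept are given there for each non-tumour pair alone as well. What set the WT small intestine apart was not tested. Cldn8, a tight junction protein of distal colon, was steadier, at 1248 and 1746 in colon tumours against 71.7 and 82.4 in SI tumours (4.26 ± 0.20 (SE), adjusted p = 0.000349).

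Of 27 other genes named for colonic epithelium, 7 were higher in colon tumours and 3 lower. The median was 0.44, with 0.53 in the ApcMin pair and -0.48 in the ACKR2-/-ApcMin pair. Hao2, a hydroxyacid oxidase, read 3360 and 1514 in colon tumours and 55 and 120 in SI tumours (4.68 ± 0.47 (SE), adjusted p = 0.00316). Muc1, a membrane mucin, read 327 and 926 against 36.5 and 32 (3.10 ± 0.38 (SE), adjusted p = 0.006), and Tgm3, a transglutaminase, 483 and 744 against 146 and 103 (2.29 ± 0.53 (SE), adjusted p = 0.0403). The Tgm3 difference was much smaller in tumours than outside them, with a change of -5.04. The 3 that were lower also marked non-tumour SI on these arrays: Prap1, a secreted epithelial protein, read 31.6 and 90.1 against 9275 and 25548 (-7.66 ± 0.26 (SE), adjusted p = 9.04e-05). Guca2b, the peptide uroguanylin, read 919 and 1090 against 11842 and 24555 (-4.09 ± 0.21 (SE), adjusted p = 0.000378), and Dpep1, a dipeptidase, was the remaining one.

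Regional hormones were largely kept. Of 25 enteroendocrine genes, 2 were higher and 8 lower in colon tumours. Of those 10, Chga, Scg2 and Neurod1 separated only the tumours, and the other 7 were kept. Counted from non-tumour tissue, 2 of the 25 marked colon and both were kept. A further 7 marked SI, of which 5 were kept, 1 narrowed and 1 was mixed. Insl5, a hormone of distal colonic L cells, read 813 and 603 in colon tumours and was below the floor in both SI tumours (3.45 ± 0.27 (SE), adjusted p = 0.00139), having read 3716 and 2700 in non-tumour colon. Isl1, a factor of endocrine cells, was the other at 543 and 1551 against 26.3 and 87.1 (3.62 ± 0.34 (SE), adjusted p = 0.00262). Nts, the ileal peptide neurotensin, read 140 and 161 in colon tumours and 2285 and 3819 in SI tumours (-4.30 ± 0.29 (SE), adjusted p = 0.00091), and Gip, a hormone of K cells, was below the floor in both colon tumours and 748 and 2116 in SI tumours (-4.29 ± 0.44 (SE), adjusted p = 0.00337). The pan-endocrine granule gene Chga was also lower in colon tumours, at 191 and 133 against 502 and 520 (-1.68 ± 0.28 (SE), adjusted p = 0.0147), and its non-tumour difference was not called (-0.36, adjusted p = 0.406). In bulk tissue, fewer endocrine cells and less transcript per cell cannot be told apart, and the same holds for every cell type named here.

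**Figure D3:**
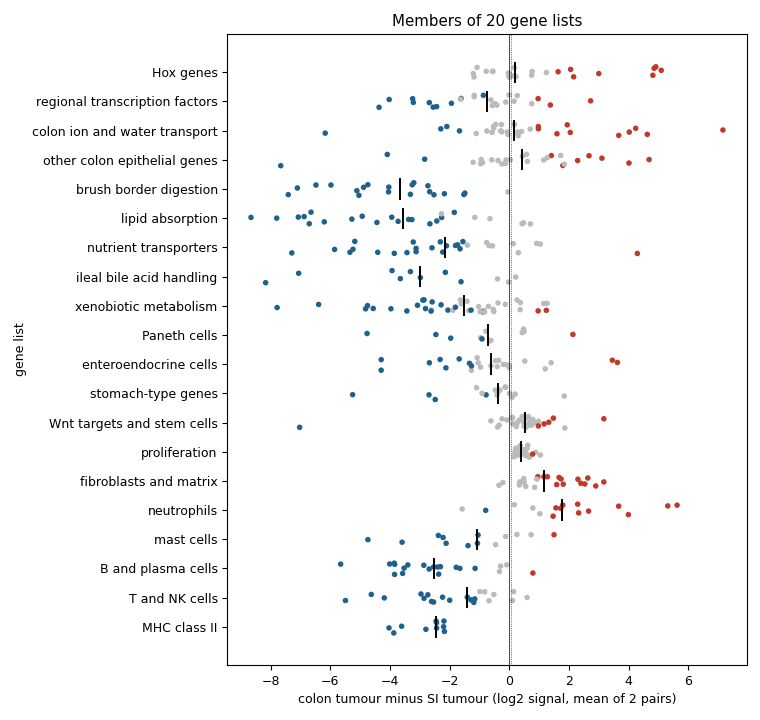
Each point is a gene of 1 of 20 lists, placed by its colon tumour minus SI tumour difference (log2 signal, mean of the 2 pairs); red and blue points passed an adjusted p under 0.05 in limma, grey ones did not, the black bar is the list's median and the dotted line the median of all genes (0.07). Absorptive, bile acid and MHC class II lists lie to the SI side, neutrophil and matrix lists to the colon side, and the Hox list has its called genes on the colon side.

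How much regional identity tumours kept was read from the non-tumour arrays. A gene was called regional when both non-tumour pairs differed by 2-fold or more with 1 sign and the limma test of non-tumour tissue passed an adjusted p under 0.05. Of 14023 genes, 1821 (13%) were higher and 1178 (8.4%) lower in non-tumour colon than in non-tumour SI (21.4% in all), and 952 and 671 of them met the rule. A regional gene was kept when both tumour pairs were at least 2-fold apart the same way, narrowed when both were under 2-fold, reversed when both were at least 2-fold the other way, and otherwise mixed. Since genes were chosen for a large non-tumour difference, a smaller difference in tumours is partly built into these counts.

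By these fold counts, the SI side held more of its set than the colon side. Of 671 SI genes, 371 (55.3%) were kept, 158 (23.5%) narrowed, 137 (20.4%) mixed and 5 (0.745%) reversed. Of 952 colon genes, 201 (21.1%) were kept, 474 (49.8%) narrowed, 271 (28.5%) mixed and 6 (0.63%) reversed. The narrowed counts depended on centring: with each array centred on its median they were 254 and 301 for the SI and colon sets, and the kept counts 412 and 175. With regional genes taken by fold from the WT pair alone, chosen after seeing the data, 45.1% of 922 SI genes and 17.1% of 1352 colon genes were kept, and from the ACKR2-/- pair alone 40.8% of 1039 and 13.6% of 1815. Read from the tumours, 199 of the 379 genes that marked colon tumours by the same rule were colon genes outside tumours (52.5%). On the SI side, 369 of the 678 genes that marked SI tumours were SI genes outside them (54.4%). The colon genes started from a smaller median non-tumour difference (1.63) than the SI genes (-1.96), nearer the 2-fold cut. A direct test of the change, over all genes, found 316 (2.25%) whose colon to SI difference was not the same in tumours as outside them, 103 (0.735%) shifted towards the colon and 213 (1.52%) towards the SI. That test called a narrowing for 137 of the 952 colon genes and 66 of the 671 SI genes. Among the genes classed as narrowed by fold, it did so for 85 of 474 and 38 of 158.

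The SI genes in the 4 lists of absorption (brush border, lipid, nutrient transport and bile acids) were all kept. Each gene counted once, they held 82 measured genes, of which 57 were regional to the SI, and all 57 stayed at least 2-fold higher in SI tumours in both pairs. The nutrient transporters also held 2 colon genes, both of them mixed. The median difference of the 82 genes was -3.13 in tumours and -2.99 outside them. Kept did not mean unchanged. The test of the change called a shift towards the colon for 1 brush border, 1 lipid, 2 nutrient transport and 1 bile acid gene. Towards the SI it called 3 nutrient transporters. The lists overlap, and over all genes the shares were 0.735% and 1.52%. Cubn, a kept gene, went from -6.89 outside tumours to -3.32 in them (shift 3.57, adjusted p = 0.00981, limma). Slc10a2 read 1322 and 3592 in non-tumour SI, and its lower values in SI tumours were not called (-1.16, adjusted p = 0.164, limma).

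**Figure D4:**
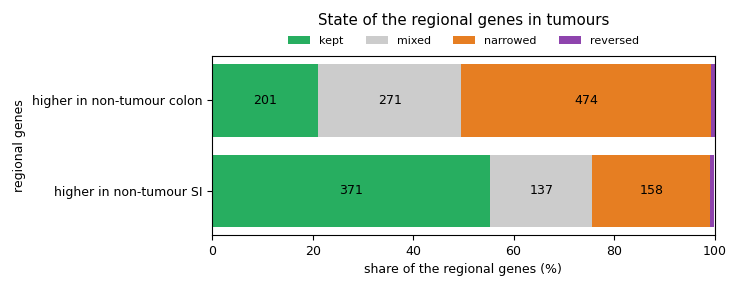
Horizontal bars give the share (%) of 952 genes higher in non-tumour colon and of 671 genes higher in non-tumour SI that were kept, mixed, narrowed or reversed in tumours, with the number of genes written in all but the narrow reversed segments. The kept segment holds 201 colon genes and 371 SI genes.

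Many of the narrowed colon genes were lower in colon tumours than in non-tumour colon. Of the 474 narrowed colon genes, 327 were lower and 3 higher in colon tumours than in non-tumour colon in limma, where 12.6% of all genes tested were lower and 11.0% higher (23.6% in all). In the SI, 30 of the 474 were higher and 26 lower in tumours, where 2.77% and 1.2% of all genes were (3.97% in all). Those contrasts share the non-tumour arrays with the rule, so the counts describe the side that moved and are no test of it. Among the largest by their non-tumour difference were Cyp2d12, a cytochrome P450, at 1959 and 1868 in non-tumour colon and 112 and 74.1 in colon tumours, and Calm4, a calcium-binding protein of keratinocytes, at 1852 and 1402 in non-tumour colon and below the floor in colon tumours.

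Several of these genes belong to cells other than colonic glands. Krt1, a keratin of cornified epithelium, read 1138 and 773 in non-tumour colon and was below the floor on all other arrays, colon tumours included. Tnnc2, a troponin of fast striated muscle, did likewise at 1275 and 1236. Of 14 measured squamous genes, 9 were colon genes outside tumours, of which 6 narrowed, 1 was kept and 2 were mixed. Their summed signal was 8742 and 7336 in non-tumour colon, 652 and 832 in non-tumour SI, and between 1428 and 2829 on the 4 tumour arrays. All 15 smooth muscle genes were lower in colon tumours than in non-tumour colon (12.6% of all genes), and 8 were lower in SI tumours than in non-tumour SI (1.2%). Their summed signals were 181938 and 162197 in non-tumour colon against 49569 and 12115 in colon tumours. The part of squamous and muscle tissue in the narrowed set was not tested. Eno3 is the muscle form of enolase and fell from 5587 and 8069 to 555 and 745 (-3.38, adjusted p = 0.000596). Ctse, cathepsin E, narrowed by the other route: it stayed at 3826 and 4487 in colon tumours and rose in SI tumours to 6211 and 8142, from 187 and 236 (5.08, adjusted p = 0.00034).

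Among the 158 narrowed SI genes, 107 were higher and 0 lower in colon tumours than in non-tumour colon, beside 11.0% and 12.6% of all genes. In SI tumours, 12 of the 158 were lower than in non-tumour SI, beside 1.2% of all genes. As on the colon side, these contrasts share the non-tumour arrays with the rule and the counts are a description. Mmp7, the metalloproteinase that activates Paneth cell defensins, was below the floor in non-tumour colon at 17.8 and 49.5 and read 9656 and 13429 in colon tumours. SI tumours read 8847 and 7588 and non-tumour SI 8936 and 9354, so non-tumour colon alone was low. The colon to SI difference shifted by 7.63 ± 0.27 (SE) between non-tumour tissue and tumours (adjusted p = 0.000581, limma). Lyz1, the Paneth cell lysozyme, went from 1659 and 2736 in non-tumour colon to 17383 and 22412 in colon tumours, near the 27083 and 33743 of SI tumours (shift 3.49, adjusted p = 0.0155). Pla2g2a, a secreted phospholipase of the same cells, read 7951 and 10069 in colon tumours and 7868 and 5142 in SI tumours (shift 4.16, adjusted p = 0.0177).

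The C-type lectins of the Reg3 family showed the same gain unequally. Reg3b read 53.5 and 39.4 in non-tumour colon and 23388 and 17624 in colon tumours, beside 27283 and 37694 in SI tumours, and its regional difference shifted by 8.55 ± 0.32 (adjusted p = 0.000581). Reg3g went from 5.24 and 5.43 to 16898 and 11412 (shift 8.16, adjusted p = 0.000581). Reg3a, by contrast, read 120 and 30 in colon tumours and 1909 and 3007 in SI tumours and remained an SI gene (-4.77 ± 0.39 (SE), adjusted p = 0.0016). Itln1, an intelectin that binds microbial sugars, rose from 104 and 36.7 to 2745 and 7071 in the colon and still stayed under the 14971 and 19772 of SI tumours (-1.97 ± 0.27 (SE), adjusted p = 0.00774). The defensin gene Defa39 did not follow, at 144 and 167 in colon tumours and 17068 and 20475 in SI tumours (-6.91 ± 0.35 (SE), adjusted p = 0.000376). Of 12 measured Paneth cell genes, 4 were lower and 1 higher in colon tumours, and 7 had a regional difference that shifted towards the colon, beside 0.735% of all genes. Ang4, of the same list, already read 19086 in WT non-tumour colon but 78.5 in ACKR2-/- colon. In colon tumours Ang4 read 10216 and 13923, and its shift was not called (3.56, adjusted p = 0.45, limma). Defensin probe sets can share sequence between paralogs, so Defa39 may read more than 1 gene.

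The 100 bases before the RefSeq starts of Reg3b and Reg3g are shown because both genes rose in colon tumours; the last 20 bases before the start are identical in both, and the TCF/LEF motif CTTTGAT, found in Reg3g only, is in capitals.

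Reg3b (chr6:78370785-78370884, plus strand): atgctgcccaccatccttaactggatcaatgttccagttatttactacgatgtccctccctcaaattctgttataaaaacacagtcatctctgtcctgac

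Reg3g (chr6:78468875-78468974, minus strand): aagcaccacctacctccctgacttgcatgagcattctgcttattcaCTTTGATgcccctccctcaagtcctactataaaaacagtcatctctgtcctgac

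Genes outside the Paneth list moved in the same direction. Clca4b, a chloride channel accessory protein, read 182 and 339 in non-tumour colon, 12548 and 16034 in colon tumours and 17803 and 25252 in SI tumours (shift 6.03, adjusted p = 0.00112). Prkg2, a cyclic GMP-dependent kinase, rose from below the floor to 1326 and 2851, with SI tumours at 1011 and 1574 (shift 5.42, adjusted p = 0.00186). Slc30a2, a zinc transporter, rose from below the floor to 985 and 1423, and Tbx3, a T-box factor, from 207 and 85.8 to 1038 and 1092. The stem cell marker Olfm4 did not take part: it was below the floor in non-tumour colon and in both colon tumours, and read 8080 and 8668 in SI tumours (-7.03 ± 0.18 (SE), adjusted p = 4.00e-05). Lgr5, another stem cell marker, read 1861 and 3027 in colon tumours and 1217 and 1730 in SI tumours (0.71 ± 0.27 (SE), adjusted p = 0.139).

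Of 32 Wnt target and stem cell genes, 5 were higher in colon tumours, Olfm4 alone was lower, and 26 were not called (median 0.54). Wif1, a secreted Wnt inhibitor, read 3968 and 6775 in colon tumours and 2296 and 1876 in SI tumours (1.32 ± 0.30 (SE), adjusted p = 0.0383), from below the floor in all non-tumour tissue. Apcdd1, another inhibitor of the pathway, read 2206 and 4031 against 472 and 234 (3.17 ± 0.45 (SE), adjusted p = 0.00917). Notum, which removes a lipid from Wnt proteins, read 1901 and 3839 against 2979 and 2105 and its groups overlapped (0.11 ± 0.38 (SE), adjusted p = 0.887). Against their own non-tumour tissue, 24 of the 32 genes were higher in colon tumours (beside 11.0% of all genes) and 12 in SI tumours (beside 2.77%). Of 29 proliferation genes 1, Rrm1, was higher in colon tumours than in SI tumours. In the colon, 26 of those 29 were higher in tumours than in non-tumour tissue (beside 11.0% of all genes) and in the SI 0 were (beside 2.77%). The difference between those 2 contrasts was called for 3 of the 29 (Birc5, Cdc20 and Rrm2), beside 2.25% of all genes.

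A small set reversed. Plet1, a surface protein of progenitor and barrier epithelium, was an SI gene outside tumours, at 2518 and 1668 in SI and 191 and 107 in colon. In tumours it read 7435 and 6210 in colon and 417 and 484 in SI (3.92 ± 0.19 (SE), adjusted p = 0.000353), a shift of 7.76 ± 0.27 (adjusted p = 0.000581). Both sides moved, up in colon tumours (5.57, adjusted p = 0.000207) and down in SI tumours (-2.19, adjusted p = 0.00543). Saa3, an acute-phase protein, read 4250 and 3071 in colon tumours against 1026 and 315 (2.67 ± 0.33 (SE), adjusted p = 0.00583), and Mmp10, a stromelysin, 4151 and 4874 against 1341 and 453 (2.53 ± 0.42 (SE), adjusted p = 0.0143). The others were Mt3, a metallothionein, and 1810065E05Rik.

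In the opposite direction, 6 colon genes became SI tumour genes. Cxcl13, the chemokine that draws B cells into follicles, read 798 and 701 in non-tumour colon and 362 and 233 in SI, and in tumours 430 and 577 in colon and 2841 and 3626 in SI (-2.69 ± 0.19 (SE), adjusted p = 0.00107). Prkcb, a protein kinase C of B cells and nerves, went from 899 and 1362 in non-tumour colon to 151 and 138 in colon tumours and from 207 and 130 to 657 and 719 in SI (-2.25 ± 0.35 (SE), adjusted p = 0.0114). Gkn3, a gastrokine, read 732 and 738 in colon tumours and 2865 and 5902 in SI tumours (-2.48 ± 0.30 (SE), adjusted p = 0.00572). Cxcr4, Cma1 and Teddm3 completed the set.

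**Figure D5:**
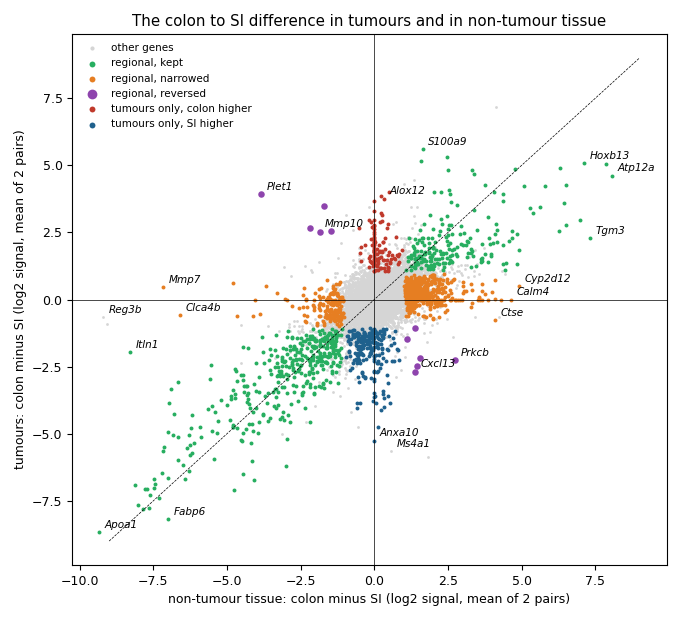
Each point is 1 of 14023 genes, with the colon minus SI difference (log2 signal, mean of 2 pairs) in non-tumour tissue on the x axis and in tumours on the y axis; colours give the classes, mixed genes being grey, and the dashed line marks equal differences. Fabp6 and Apoa1 lie near the line, narrowed genes such as Mmp7 and Cyp2d12 near a tumour difference of 0, and the 11 reversed genes in the upper left and lower right.

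Other genes separated the tumours without separating the tissues. At least 2-fold apart in both tumour pairs and under 2-fold in both non-tumour pairs were 109 genes on the colon side and 219 on the SI side. The test of the change passed for 23 of the 109 and 56 of the 219, beside 2.25% of all genes. On the colon side, 87 of the 109 were higher in colon tumours than in non-tumour colon, beside 11.0% of all genes. On the SI side, 97 of the 219 were higher in SI tumours than in non-tumour SI (2.77% of all genes), and 85 were lower in colon tumours than in non-tumour colon (12.6%). The genes were chosen on the same arrays for a large tumour and a small non-tumour difference, so nothing is read from these counts.

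Genes of neutrophils and of their attraction were frequent on the colon side. Of 16 measured genes of this list, 11 were higher in colon tumours and 1, Elane, was lower (median 1.76). The list also holds Il1b and the attractants Cxcl1, Cxcl2, Cxcl3 and Cxcl5, which are not markers of the cell. Ly6g, Cxcr2, Mpo, Camp, Retnlg and Fpr1 were listed but not among the genes analysed. Of the 16, 7 were among the 109 of all 14023 genes that separated only the tumours. S100a9, a subunit of calprotectin, read 4681 and 3594 in colon tumours and 108 and 56.9 in SI tumours, at least 49.2-fold higher (5.62 ± 0.27 (SE), adjusted p = 0.000349). Non-tumour colon had read 230 and 172, and the shift in its regional difference was called (3.98, adjusted p = 0.0132). Cxcl2, which attracts neutrophils, was below the floor in all non-tumour tissue and read 1853 and 1809 in colon tumours against 197 and 106 (3.66 ± 0.29 (SE), adjusted p = 0.00154). Il1b read 1254 and 1493 against 262 and 181 (2.65 ± 0.33 (SE), adjusted p = 0.006, limma). Il23a, on the cytokine list and not on this one, read 298 and 662 against 66.1 and 36.6 (2.77 ± 0.31 (SE), adjusted p = 0.00438). The summed signal of the 16 genes was 21597 and 22426 in colon tumours and 3024 and 2452 in SI tumours.

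Matrix genes were also higher in colon tumours. Of 24 fibroblast and matrix genes, 13 were higher in colon tumours and 0 lower (median 1.16). Of the 13, 6 were kept colon genes. Fn1, fibronectin, was one of them and read 10960 and 8895 in colon tumours against 2561 and 1376 in SI tumours (2.39 ± 0.25 (SE), adjusted p = 0.00368), with a non-tumour difference of 2.21. Col1a1 read 1934 and 488 against 642 and 120, with both ACKR2-/-ApcMin tumours lower than their ApcMin counterparts (1.81 ± 0.22 (SE), adjusted p = 0.006). Among matrix-degrading enzymes, Mmp13, a collagenase, read 4291 and 5003 in colon tumours against 774 and 345 (3.16 ± 0.46 (SE), adjusted p = 0.00947) and its non-tumour difference was not called (-0.96, adjusted p = 0.192). Mmp3 read 567 and 461 against 73.8 and 55.3 (2.89 ± 0.21 (SE), adjusted p = 0.0011), and Mmp12, of macrophages, 772 and 909 against 115 and 31.5 (3.29 ± 0.31 (SE), adjusted p = 0.00261). The summed signal of the list was 82639 and 58163 in colon tumours and 34993 and 13699 in SI tumours.

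Of 31 inflammatory cytokines and chemokines, 11 were higher in colon tumours and 2, Ccl5 and Ccl25, in SI tumours (median 0.46). Tnf read 156 and 270 in colon tumours and 40.9 and 71 in SI tumours (1.60 ± 0.22 (SE), adjusted p = 0.00825). Ccl2, which draws monocytes and is a ligand of ACKR2, read 189 and 213 against 57.7 and 96.1 (1.35 ± 0.20 (SE), adjusted p = 0.0105), and Ccl8 845 and 911 against 264 and 249 (1.77 ± 0.28 (SE), adjusted p = 0.0131). Ccl5, made by cytotoxic lymphocytes and also bound by ACKR2, read 174 and 80.2 against 2119 and 4030 and was a kept SI gene (-4.63 ± 0.57 (SE), adjusted p = 0.00582). Of 22 macrophage and dendritic cell genes 5 were higher in colon tumours and 1 lower (median 0.65). Cd14, a receptor for bacterial lipopolysaccharide, read 3412 and 4668 against 776 and 842 (2.30 ± 0.21 (SE), adjusted p = 0.00242).

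Further genes of the colon tumours had other roles. Alox12, a lipoxygenase, read 876 and 1811 against 92.6 and 93.6 (3.76 ± 0.33 (SE), adjusted p = 0.002). Wnt10a, a Wnt ligand, read 517 and 623 against 81.2 and 48.2 (2.97 ± 0.24 (SE), adjusted p = 0.00154), and Evx1, a homeobox gene, 436 and 456 against signals below the floor (2.80 ± 0.21 (SE), adjusted p = 0.00114). Mt4, a metallothionein otherwise found in stratified epithelium, read 3927 and 12010 in colon tumours and 162 and 223 in SI tumours (5.18 ± 0.36 (SE), adjusted p = 0.000948). Non-tumour colon had read 248 and 150.

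SI tumours were richer in lymphocyte genes. Of 21 B and plasma cell genes, 17 were higher in SI tumours and 1 in colon tumours, with a median of -2.54. Ms4a1, which encodes CD20, read 58.5 and 84.5 in colon tumours and 2549 and 5389 in SI tumours, at least 50.3-fold higher there (-5.65 ± 0.35 (SE), adjusted p = 0.000669). Non-tumour tissue had read 313 and 161 in colon and 311 and 73.9 in SI, and the shift was called (-6.22, adjusted p = 0.00981). Ighm, the heavy chain of IgM, read 238 and 85.6 against 3553 and 4235 (-4.76 ± 0.41 (SE), adjusted p = 0.00189). Of the list, 13 genes separated the tumours and not the non-tumour tissues, beside 219 of all 14023 genes. In SI tumours 15 were higher than in non-tumour SI, beside 2.77% of all genes. The summed signal of the 21 genes was 37956 and 32451 in colon tumours and 54094 and 58393 in SI tumours. Of the 21, 4 and 8 were at the floor in colon tumours and 0 in SI tumours. Cxcl13, a follicle chemokine, moved with these genes as given above, and the part of lymphoid follicles in them was not tested.

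T cell genes were instead a kept trait of the SI. Of 21 T and NK cell genes, 14 were higher in SI tumours and 0 in colon tumours, and 10 of the 10 regional ones were kept. Gzma, a granzyme of intraepithelial lymphocytes, read 264 and 112 in colon tumours and 5217 and 11445 in SI tumours (-5.49 ± 0.56 (SE), adjusted p = 0.00326), with 5868 and 13787 in non-tumour SI. Itgae, which encodes the integrin CD103 of those cells, read 178 and 141 against 852 and 1303 (-2.73 ± 0.44 (SE), adjusted p = 0.0135). Ccl25, the chemokine that draws lymphocytes to the small intestine, read 71.9 and 158 against 7020 and 12847 (-6.48 ± 0.19 (SE), adjusted p = 4.81e-05). All 10 measured MHC class II genes were higher in SI tumours (median -2.45). Cd74, the invariant chain, read 5243 and 3331 against 18559 and 20006 (-2.20 ± 0.32 (SE), adjusted p = 0.00941) and was kept, as were all 7 of the 10 that were regional. H2-Ob, a class II gene of B cells, read 52.7 and 32.8 against 925 and 954 (-3.87 ± 0.27 (SE), adjusted p = 0.000948) and its non-tumour difference was not called (0.53, adjusted p = 0.213).

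Mast cell genes were higher in SI tumours. Of 13 mast cell genes, 8 were higher in SI tumours and 1, Hdc, in colon tumours. Mcpt1, a protease of mucosal mast cells, read 7561 and 14036 in SI tumours, 49.9 in the ApcMin colon tumour and 2316 in the ACKR2-/-ApcMin colon tumour (-4.74 ± 0.91 (SE), adjusted p = 0.0234). Mcpt2 read 4468 and 9940 in SI tumours, 153 in the ApcMin colon tumour and 1992 in the other (-3.59 ± 0.59 (SE), adjusted p = 0.0136). For both proteases the SI tumours were above the colon tumours, and the ApcMin colon tumour was lowest. Against non-tumour SI both were higher in SI tumours (6.76, adjusted p = 0.0183, and 5.52, adjusted p = 0.0089). With 1 array per genotype, the gap between the 2 colon tumours has no replicate check.

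Some stomach-type genes were higher in SI tumours. Of 16 measured, 4 were higher in SI tumours and 0 in colon tumours. Anxa10, an annexin of gastric epithelium, was below the floor in all non-tumour tissue and both colon tumours and read 1402 and 4266 in SI tumours, at least 38.1-fold higher (-5.25 ± 0.40 (SE), adjusted p = 0.00126). Gkn1, a gastrokine, did the same at 376 and 457 (-2.69 ± 0.20 (SE), adjusted p = 0.00126). Bpifb1, a secreted protein of mucosal defence, read 51.8 and 45.7 in colon tumours and 781 and 828 in SI tumours (-3.65 ± 0.21 (SE), adjusted p = 0.00052). Anxa10, Gkn1 and Bpifb1 were above the floor only on the SI tumour arrays and passed the filter on dim genes through them. Their errors rest on the gap between those arrays, so their adjusted p-values are not independent support. Bpifb5, a relative of Bpifb1, read 90.8 and 82.9 against 1143 and 1220 (-3.77 ± 0.23 (SE), adjusted p = 0.000633). S100g, an intestinal calcium-binding protein, moved on both sides: non-tumour colon read 948 and 2304 and SI 415 and 414, while colon tumours read 43.1 and 377 and SI tumours 13207 and 6147 (-5.86 ± 0.80 (SE), adjusted p = 0.0077). Its shift was -7.69 ± 1.13 (adjusted p = 0.0342).

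Of 21 measured genes of fetal and regenerative epithelium, 4 were higher in colon tumours, 2 in SI tumours and 15 were not called (median 0.20). Anxa1 read 18114 and 19787 in colon tumours and 7228 and 4810 in SI tumours (1.68 ± 0.24 (SE), adjusted p = 0.00917), a difference smaller than the 3.74 outside tumours (shift -2.06, adjusted p = 0.0451). Clu, a marker of revival stem cells, read 5486 and 8267 against 16870 and 16256 (-1.30 ± 0.20 (SE), adjusted p = 0.0107), and Ly6d 1195 and 2119 against 5882 and 5729 (-1.87 ± 0.23 (SE), adjusted p = 0.006). Both of these were higher in tumours than in non-tumour tissue of either region, with a larger increase in the SI (shift -2.21, adjusted p = 0.0241, and -2.66, adjusted p = 0.0231).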

How the data were processed

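The authors deposited 1 linear intensity per probe set and array for 8 mouse Affymetrix arrays. MAS5 and Partek are named in the submitters' processing notes, without versions, and each array's trimmed mean was 500. RNA was pooled per genotype and tissue, per the labels and series design. Of 45101 probe sets, 64 were controls, 34945 had 1 gene symbol, 932 several and 9160 none; only those with 1 were used, the brightest probe set standing for a gene. Signals were raised to the 40th percentile (64.1) and log2-transformed, and genes above it on at least 2 arrays were kept (14023 of 18193). limma 3.58.1 (R 4.3.3) fitted 6 coefficients to 8 arrays, with 2 residual degrees of freedom, a mean-variance trend and Benjamini-Hochberg adjustment. The tests were two-sided. The fit was tested on simulated data. The series has no replicate arrays, so p-values describe these arrays. The number of arrays limits the precision.

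The members and gene lists were chosen with earlier results of these data known. Named genes are the 12 per side with the largest smallest difference over both tumour pairs, up to 8 per regional class and per list, and a fixed set that includes Car1, Fabp6, Lgr5 and Mcpt1. The motif genes were named by their match. The alternatives tried are given at the end. Tables were handled with Python 3.11.15 and pandas 2.3.3. Promoter sequences are RefSeq's (GRCm38.p6).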

Additional observations from a re-analysis of the deposited data

Results flagged for a closer look

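For 88 of the 320 genes named by rule or list, the colon minus SI difference in tumours was not the same as in non-tumour tissue, by limma's test of the difference between the 2 contrasts (adjusted p under 0.05, Benjamini-Hochberg over 14023 genes). Values are tumour minus non-tumour of that difference on the log2 scale, so a positive value is a shift towards the colon. For 2310079G19Rik, Atp12a, Calm4, Casp14, Cxcl3, Cyp2d12, Evx1, Hoxb13, Insl5, Krt1 and Tnnc2 all 4 SI arrays were below the floor, so the value is the change in colon alone, and for Anxa10, Bpifb1 and Gkn1 all 4 colon arrays were, so it is the change in SI with the sign turned. Anxa10, Bpifb1, Calm4, Cxcl3, Gkn1, Krt1 and Tnnc2 were above the floor only in tumours of a single region or only in non-tumour colon. They passed the filter through those arrays, so their calls are not independent support. Among Paneth cell genes and genes that rose with them, the shift was 8.55 for Reg3b, 8.16 for Reg3g, 6.33 for Itln1, 7.63 for Mmp7, 6.03 for Clca4b, 5.42 for Prkg2, 4.16 for Pla2g2a, 4.03 for Slc30a2, 3.49 for Lyz1 and 3.32 for Tbx3. For the genes that reversed towards the colon it was 7.76 for Plet1, 5.21 for 1810065E05Rik, 4.85 for Saa3, 4.39 for Mmp10 and 4.01 for Mt3. Inflammatory and matrix genes had shifts of 3.98 for S100a9, 3.66 for Cxcl2, 3.29 for Mmp12, 3.02 for Mmp3, 3.44 for Alox12, 4.13 for Mmp13, 3.16 for Il1b, 2.77 for Il23a, 2.32 for Clec4e and 2.29 for Cxcl3. Among genes of SI uptake it was 3.57 for Cubn and 3.12 for Slc3a1, and it was 3.10 for Isx, a transcription factor of the SI. Other shifts towards the colon were 3.62 for Rnase1, 3.29 for Slc6a14, 2.19 for Smoc2, 2.14 for Nupr1, 3.59 for Mt4, 2.97 for Wnt10a, 2.34 for Evx1 and 2.30 for Lgr5, and the pancreatic lipase relatives had 4.03 for Pnliprp2 and 2.81 for Pnliprp1. Towards the SI, lymphocyte genes had -6.22 for Ms4a1, -4.89 for Ighm, -4.40 for H2-Ob, -4.34 for Ighv14-2, -4.34 for Fcmr, -4.03 for Bank1, -4.00 for Btla, -3.89 for Cd79b, -3.83 for Cr2, -3.69 for Cd22, -3.63 for H2-Oa, -3.45 for H2-DMb2, -3.36 for Cd79a and -3.26 for Spib. Mast cell genes had -2.22 for Ms4a2 and -2.12 for Fcer1a. The genes that reversed towards the SI had -5.00 for Prkcb, -4.05 for Cxcl13, -3.93 for Gkn3, -3.71 for Teddm3, -2.58 for Cxcr4 and -2.43 for Cma1. Stomach-type and secreted proteins of SI tumours had -5.25 for Anxa10, -4.86 for Ctse, -3.74 for Bpifb5, -3.65 for Bpifb1 and -2.69 for Gkn1. Squamous and striated muscle genes had -4.89 for Krt6a, -4.65 for Calm4, -4.29 for Tnnc2, -3.87 for Krt1, -3.57 for Casp14 and -3.38 for Eno3. Tgm3, of the colonic epithelial list, had -5.04, and Ly6d, of the fetal and regenerative list, had -2.66. Other shifts towards the SI were -7.69 for S100g, -4.39 for Cyp2d12, -4.07 for 2310079G19Rik, -3.44 for Atp12a, -3.11 for Il1rn, -3.05 for Cela1, -2.80 for Sycn, -2.22 for Slc6a20a, -2.21 for Clu, -2.18 for Insl5, -2.06 for Anxa1, -2.05 for Arg1, -2.04 for Hoxb13, -1.93 for Anxa3 and -1.42 for Hk1.

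The 2 genotypes disagreed for 10 genes, with at least 2-fold in opposite directions; with 1 array per group this difference was not tested. Values are the colon minus SI tumour difference of the ApcMin pair less that of the ACKR2-/-ApcMin pair on the log2 scale. Slc26a3, the chloride exchanger of colonic surface cells, read 6487 in ApcMin colon tumours and 3051 in SI tumours, against 1841 and 5567 in ACKR2-/-ApcMin mice, a gap of 2.68. Adh1, an alcohol dehydrogenase, read 8155 and 2073 against 5683 and 15657, a gap of 3.44. Cnn1, a smooth muscle calponin, had 2.48, beside smooth muscle sums of 49569 and 12115 in the colon tumours and 37558 and 16639 in the SI tumours. The others were 2.73 for Klf14, 2.63 for Sdr42e1, 2.45 for 3110021A11Rik, 2.35 for Akr1c14, 2.25 for Fam13a, -2.18 for Irx4 and -2.76 for Tafa2.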

How the results depend on the processing

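The 808 and 1032 genes higher in colon and SI tumours stayed within 1.5 times of their number without a floor, with floors at the 25th and 60th percentile, with a filter on all 4 tumour arrays, under quantile normalization or median centring, with averaged probe sets, with 1 shared ACKR2 effect and without a mean-variance trend. Without the filter on dim genes (18193 tested) 5 and 19 passed (1921 and 1727 at an unadjusted p under 0.05 in limma), with 20 shifts between tumour and non-tumour tissue, 38 colon genes kept and 71 narrowed, and 55 SI genes kept and 25 narrowed. The 4 tumour arrays alone gave 0 and 0 (1274 and 1446 unadjusted) and no value for the comparisons with non-tumour tissue. Requiring 1.5 on the log2 scale in every pair left 185 and 423 called, 185 and 425 by fold in both pairs, 91 colon and 237 SI genes kept, 226 and 88 narrowed, and 63 and 145 that separated only the tumours. The 316 shifts became 209 with a floor at the 25th percentile, 156 with averaged probe sets and 202 without the trend. Genes that separated only the tumours numbered 134 on the SI side with a floor at the 60th percentile, and 67 and 141 with the filter on all 4 tumour arrays. Median centring gave 301 narrowed colon and 254 narrowed SI genes. With regional genes taken by fold from 1 non-tumour pair, chosen after seeing the data, 717 colon and 284 SI genes narrowed from the WT pair and 1039 and 382 from the ACKR2-/- pair. Leaving out each tumour array in turn gave 0 to 0 genes called on either side (1045 to 2401 and 1250 to 1880 at an unadjusted p under 0.05 in limma), 586 to 1476 and 883 to 1342 by fold, 0 to 0 shifts, 0 to 17 colon and 0 to 45 SI genes kept, 0 to 3 and 0 to 5 narrowed, and 158 to 761 and 337 to 622 that separated only the tumours; each such fit has 1 array less and compares 1 pair. No paired analysis was possible because each group holds 1 array and so has no replicate number to serve as a block; the model itself compares tissues within each ACKR2 genotype. Of the 320 genes named by rule or list, 211 were called between the tumours; 202 of these calls were lost without the filter, all 211 with the tumour arrays alone and in each leave-out, and 1 to 22 under each other setting that lost any. None of the 211 changed sign under the settings in which they were tested. A gene that a setting's filter removed was not counted as a lost call. With the filter on all 4 tumour arrays 11404 genes were tested, and 1407 of the 1840 genes called in the main model were called again. Genes at the floor on a tumour array, such as Apoa1, Hoxb13 and Cyp3a11, could not be called there. Of the list medians, 48 moved by more than the spread outside the leave-outs and 85 with them, and 11 of 36 changed sign under some setting, 5 of them within 0.1 of 0 to begin with. The other 6 were colon ion and water transport and other colon epithelial genes, with the values in the report, goblet cells (0.17 to -0.30 without either ApcMin tumour array), adipocytes (-0.84 to 0.02 with the filter on all 4 tumour arrays), exocrine pancreas (-0.51 to 0.06 without either ACKR2-/-ApcMin tumour array) and sex-linked genes (0.16 to -0.04 with averaged probe sets and -0.24 without either ACKR2-/-ApcMin tumour array). The causes of these changes were not tested beyond the fewer arrays or other genes each setting uses. Signals near the floor limit what can be measured: differences of genes at the floor are lower bounds.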

Other observations

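Of 24 measured interferon-induced genes, 9 were lower in colon tumours, 1 was higher and 14 were not called (median -0.57). Psmb8, a subunit of the immunoproteasome, read 1123 and 1400 in colon tumours and 2958 and 4508 in SI tumours (-1.54 ± 0.19 (SE), adjusted p = 0.00582, limma). Tap1, which carries peptides to MHC class I, read 398 and 469 against 1065 and 1313 (-1.45 ± 0.18 (SE), adjusted p = 0.00559). Of 11 interferon-induced genes that marked non-tumour SI, 4 were kept and 7 narrowed. Among junction genes, 1 of 19 was higher in colon tumours (Cldn8) and 1 lower, Cldn15, a pore-forming claudin of the small intestine, at 1354 and 533 against 3146 and 4939 (-2.21 ± 0.43 (SE), adjusted p = 0.0247). Those junction counts are near the shares over all genes tested, 5.76% higher and 7.36% lower.

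Of 22 goblet cell genes, 0 were higher in colon tumours and 2 lower, Fcgbp and Tff3, while 20 were not called in limma (median 0.17, but -0.30 in the ACKR2-/-ApcMin pair alone). Of 15 tuft cell genes, 0 were higher and 2 lower: Rgs13 read 80.4 and 16.4 against 256 and 1392 (-3.05 ± 0.65 (SE), adjusted p = 0.0316), and Ltc4s, which makes leukotriene C, 99.3 and 28.6 against 290 and 357 (-2.01 ± 0.32 (SE), adjusted p = 0.0131). Of 20 endothelial genes 1 was lower, Madcam1, the addressin of gut venules, at 177 and 136 against 522 and 380 (-1.52 ± 0.24 (SE), adjusted p = 0.0128). Pancreatic-type genes were uneven: Pnliprp1, a lipase relative, read 1527 and 4445 against 257 and 609 (2.72 ± 0.27 (SE), adjusted p = 0.00318), and Clps, colipase, 947 and 1190 against 2118 and 4940 (-1.61 ± 0.23 (SE), adjusted p = 0.00877). Of 23 hypoxia and glycolysis genes 3 were higher and 2 lower. Over all genes tested, 5.76% were higher and 7.36% lower in colon tumours. The goblet, tuft, endothelial and glycolysis counts are within a few genes of those shares, so nothing is read from them about these lists.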
